A study of Mus musculus with 2 samples.

Results

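The 10 genes described here encode cytotoxic effectors and checkpoint or costimulatory receptors of T cells: Gzma, Gzmb, Gzmc, Nkg7, Ifng, Pdcd1, Ctla4, Icos, Lag3 and Tigit. They were taken by symbol from the 31053 features of the tables, and all 10 were found. The data were single-cell RNA counts of full-thickness back skin from 1 wild-type (WT) mouse and 1 Card14KI mouse, whose genotype is given as Card14 KI +/+. Both were C57BL/6 and 12 months old, and both skins went through the same enzymatic digestion of 73 min and a dead-cell removal step. The series title names the mutant a Card14 model of pityriasis rubra pilaris, a scaling skin disease, and Card14 encodes a scaffold protein of keratinocytes that activates NF-kB. With 1 mouse per genotype there was no replicate and no test of genotype was possible. Every interval below is a 95% interval for counting error only, and a difference between the libraries is a difference between 2 mice.

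Granzymes are serine proteases that cytotoxic lymphocytes store in granules and deliver into target cells, and NKG7 is a membrane protein of those granules. Interferon gamma, the product of Ifng, is the main cytokine of type 1 lymphocytes and acts on keratinocytes, fibroblasts and myeloid cells. PD-1 (Pdcd1), CTLA-4, LAG-3 and TIGIT restrain T cell activation, while ICOS promotes it. Skin holds resident CD8 and CD4 T cells, regulatory T cells, innate lymphoid cells and, in the mouse, gamma-delta T cells that include dendritic epidermal T cells (DETC).

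T and innate lymphoid cells (T/ILC) were gated by 12 marker genes that do not include the 10 genes. The gate held 369 of 4161 kept cells in WT (8.87%) and 146 of 2835 in Card14KI (5.15%), with medians of 3195 and 3363 UMIs per cell. They were divided by marker genes into 10 subsets in a fixed order. Cells with a Foxp3 UMI numbered 30 in WT and 9 in Card14KI, type 17 cells 40 and 29, DETC 64 and 19, type 2 cells 54 and 4, and CD8 cells 38 and 35. CD4 cells numbered 27 and 14, other gamma-delta cells 16 and 1, other T cells 65 and 31, natural killer (NK) cells 10 and 2, and other lymphoid cells without a Cd3 UMI 25 and 2. CD8 cells made up 10.3% (7.39 to 13.9) of the WT and 24.0% (17.3 to 31.7) of the Card14KI gate, and type 17 cells 10.8% and 19.9%. Levels are given as CPM (the gene's UMIs scaled to the UMI total of the same cells). They were compared within a subset where both libraries held at least 20 cells, which left CD8, type 17 and other T cells. Exceptions are the ratios of Ctla4 in Foxp3 cells and Nkg7 in DETC, which rest on fewer than 20 Card14KI cells. The difference in the share of Lag3-positive DETC also rests on fewer than 20.

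Markers that the gates did not use were checked in each subset. Ikzf2 was detected in 26 of 30 Foxp3 cells in WT and 9 of 9 in Card14KI, against 28.9% and 21.9% of the other T/ILC cells. Il2ra, Tnfrsf18 and Tnfrsf4 were also more frequent there, but Capg hardly set the WT Foxp3 cells apart, at 73.3% against 69.9%. Blk was detected in 22.5% and 48.3% of type 17 cells, against 3.04% and 4.27% of the others. Maf, Cxcr6 and Il7r were also more frequent in type 17 cells of both libraries. Ccr6 and Il18r1 were so in WT, at 27.5% against 14.0% and 72.5% against 41.3%. In Card14KI they stood close to the others, at 10.3% against 8.55% and 55.2% against 47.9%. DETC carried Xcl1 in 85.9% and 89.5% of cells, but Tyrobp, also on their check list, in 3.13% and 0%. All 10 WT and both Card14KI NK cells held Tyrobp and Klrd1. Of the 10 WT NK cells, 2 held Eomes, 3 Tbx21 and 4 Prf1. In CD8 cells Ccl5 was detected in 44.7% and 40%, against 9.37% and 9.91% of the others, and Eomes in 23.7% and 11.4%, against 2.42% and 0.901%. The other CD8 checks did not set these cells apart in WT: Itgae stood at 47.4% against 48.6%, Klrd1 at 28.9% against 25.7%, and Runx3 lower, at 39.5% against 54.98%. In Card14KI, Klrd1 stood at 48.6% against 17.1%, Runx3 at 65.7% against 59.5% and Itgae at 42.9% against 40.5%. WT type 2 cells held Gata3 in 81.5% against 42.9%, while of the 4 Card14KI type 2 cells 1 held Gata3, 1 Areg and 3 Rora.

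Some cells touched the values of both libraries. In the gate, 7 WT and 2 Card14KI cells lay outside the 3 unsupervised clusters led by T/ILC markers, yet held 17.03% and 17.7% of all T/ILC UMIs, so they weigh on every CPM. Of the 7 WT cells, 2 were counted as CD8 and 2 as other T cells, which lowers the WT levels of those subsets, and their values are therefore also given for the led clusters alone. The 2 libraries shared 2 barcodes, 1 of them among T/ILC cells. A further 6 WT and 31 Card14KI cells had T/ILC markers but more than 2% keratinocyte marker UMIs and were left out. With a keratinocyte and fibroblast limit of 5%, the gate held 375 WT and 177 Card14KI cells, and DETC numbered 69 and 37. The 2% limit thus left out more DETC of Card14KI than of WT. This bears on the DETC counts, the subset shares and every DETC comparison below. The 31 Card14KI cells held 52 UMIs of Nkg7, in 20 cells, and 3 UMIs of the other 9 genes together.

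**Figure D1:**
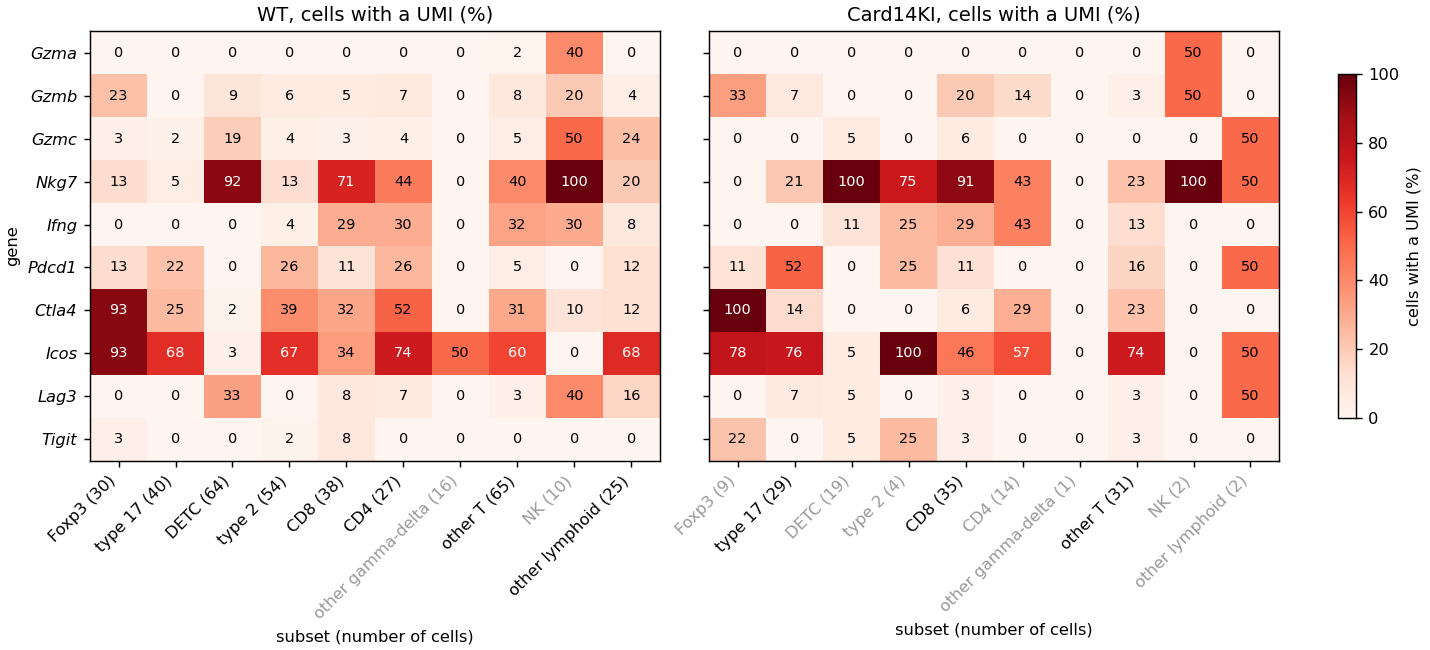
Share of cells with a UMI of each gene (rows) in each T/ILC subset (columns, with the number of cells), WT on the left and Card14KI on the right. Subset names in grey mark fewer than 20 cells. Nkg7 stood high in DETC, CD8 and NK cells, Ctla4 in Foxp3 cells, and Icos in most subsets other than DETC and NK cells.

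Across all T/ILC cells, the mutant library held less Ctla4, Gzmc, Gzma and Lag3 RNA relative to all UMIs, and more Ifng and Pdcd1, while Nkg7, Gzmb and Icos lay nearer to WT. By a 2-fold limit, 4 of the 10 genes were lower (Gzma, Gzmc, Ctla4 and Lag3). Over the 9697 genes with 10 or more UMIs, 12.5% were 2-fold lower. Of the 10 genes, 1 was 2-fold higher (Tigit, with 6 UMIs in each library), beside 5.57% of all genes. The median log2 ratio of the 10 genes was -0.03, and that of all genes was -0.06. With so few members these counts describe the list and do not set it apart from other genes. Leaving out the 9 cells outside the led clusters gave the same 4 lower and 1 higher count, beside 12.8% and 3.45% of 8792 genes.

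Gzma and Gzmc, 2 of the 4 lower genes, rested on few cells. When the 2 libraries were given the same subset shares, the number of genes 2-fold lower was 2, and the log2 ratio of Gzmc changed sign to 0.22. This weighting set no minimum of cells per subset. Card14KI had 2 NK and 2 other lymphoid cells, and 1 of the latter held 199 of the 269 Gzmc UMIs. When cells with up to 5% keratinocyte or fibroblast marker UMIs were admitted, 7 of the 10 genes were 2-fold lower; the 31 Card14KI cells over the keratinocyte limit held 1806839 UMIs, against 634382 in the gate, and these enter the total that every CPM is divided by. The higher levels of Ifng and Pdcd1 did not hold under every setting either: their lowest log2 ratios over the settings were -0.71 and -0.54. Shares of positive cells do not use that total and are given beside each level.

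**Figure D2:**
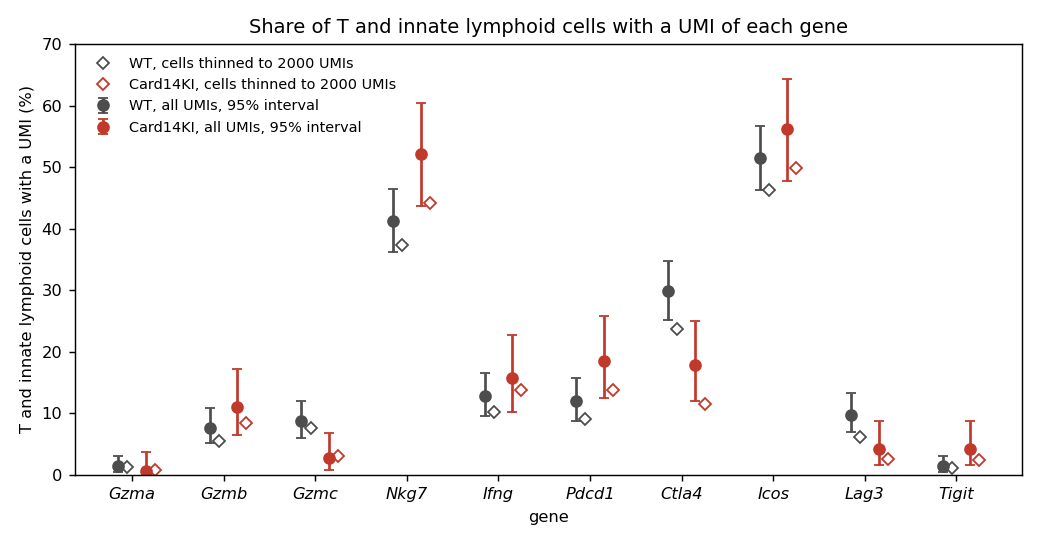
Share of T/ILC cells with a UMI of each gene. Filled circles use all UMIs, with exact 95% binomial intervals. Open diamonds give the share expected when cells are thinned to 2000 UMIs, without the cells that held fewer. Ctla4 stood at 29.8% in WT and 17.8% in Card14KI, and Icos at 51.5% and 56.2%.

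The promoter windows of 4 genes are shown because these are the effectors described below: Gzmb and Gzmc are neighbouring paralogs, and Nkg7 and Ifng were often detected in the same cells. Windows run from 250 bases before to 50 after the RefSeq start site on GRCm38.p6, 5′ to 3′ on the gene's strand, and RefSeq windows were at hand for 8 of the 10 genes. They are Gzmb chr14:56262285-56262584 (minus strand), Gzmc chr14:56234608-56234907 (minus strand), Nkg7 chr7:43436888-43437187 (plus strand) and Ifng chr10:118440796-118441095 (plus strand). Capitals mark exact matches, on either strand, to the letters TGTGGT (RUNX), TGANTCA (AP-1), GGTGTGA (T-box), TTCNNNGAA (STAT) and TATAAA (core promoter).
Gzmb promoter: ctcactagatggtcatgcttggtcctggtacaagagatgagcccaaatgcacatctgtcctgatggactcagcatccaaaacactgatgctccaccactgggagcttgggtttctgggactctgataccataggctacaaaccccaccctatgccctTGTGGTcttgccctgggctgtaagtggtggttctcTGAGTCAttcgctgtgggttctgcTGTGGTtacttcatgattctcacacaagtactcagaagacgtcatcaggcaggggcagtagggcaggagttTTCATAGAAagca
Gzmc promoter: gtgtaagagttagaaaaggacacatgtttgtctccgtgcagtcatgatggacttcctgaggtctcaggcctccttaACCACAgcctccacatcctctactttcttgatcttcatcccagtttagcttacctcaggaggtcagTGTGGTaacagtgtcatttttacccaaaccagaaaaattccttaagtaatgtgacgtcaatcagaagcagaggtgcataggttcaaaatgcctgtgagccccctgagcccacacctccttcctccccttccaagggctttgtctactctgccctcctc
Nkg7 promoter: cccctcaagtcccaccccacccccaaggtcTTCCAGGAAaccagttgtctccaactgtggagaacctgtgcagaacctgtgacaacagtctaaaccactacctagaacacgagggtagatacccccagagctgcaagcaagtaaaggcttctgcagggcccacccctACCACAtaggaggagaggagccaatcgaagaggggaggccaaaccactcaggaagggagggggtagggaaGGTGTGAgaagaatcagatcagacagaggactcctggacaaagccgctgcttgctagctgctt
Ifng promoter: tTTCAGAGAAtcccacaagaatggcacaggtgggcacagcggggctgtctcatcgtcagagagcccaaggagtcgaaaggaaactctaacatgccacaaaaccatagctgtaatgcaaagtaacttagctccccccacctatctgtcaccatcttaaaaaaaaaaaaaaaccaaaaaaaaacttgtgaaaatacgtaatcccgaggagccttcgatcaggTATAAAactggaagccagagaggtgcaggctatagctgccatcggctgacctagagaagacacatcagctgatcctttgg

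The RUNX letters occurred in 5 of the 8 windows (Gzma, Gzmb, Gzmc, Nkg7 and Tigit), and in 16.8% of all 32851 windows of the same length. Gzmb held them 93 and 34 bases before the start site, beside an AP-1 match 58 bases before it. The AP-1 letters occur in 7.81% of all windows. Among the 8, the T-box letters occurred only in Nkg7, 13 bases before its start site, and in 3.98% of all windows. Ifng had TATAAA 30 bases before its start site, as 13.6% of all windows have it somewhere. No match overlapped another. These are matches of letters and were not tested as binding sites.

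Gzma, Gzmb and Gzmc are the granzyme members. On GRCm38, Gzma lies on chromosome 13 (113093825 to 113100981, minus strand) and Gzmb on chromosome 14 (56258838 to 56262260, minus strand). Gzmc (56231441 to 56234656, minus strand) is separated from Gzmb by 24181 bases. Of the 30-base stretches in the last 500 bases of the Gzmc transcript, 4.25% also occur in another gene, most often Gzmb, so a small part of their reads could be shared. For Gzma and Gzmb that share was 0%.

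Gzma was a gene of a handful of cells. In WT it was detected in 5 of 369 T/ILC cells, with 67, 55, 5, 4 and 2 UMIs, 4 of them NK cells and 1 an other T cell. In Card14KI it was detected in 1 of 146 cells, an NK cell with 15 UMIs. Its T/ILC level was 87.3 CPM in WT against 23.6 in Card14KI (ratio 0.271, 0.147 to 0.463). With 5 markers in place of 3 required for the gate, the log2 ratio of Gzma turned to 2.18. Neither library had a Gzma UMI in CD8, CD4, Foxp3, type 17 or DETC cells. In CD8 cells, 0 of 38 and 0 of 35 cells allow shares of up to 7.89% and 8.57%.

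Gzmc reached far higher counts in single cells than the other members. In WT, 32 T/ILC cells held 2043 UMIs, and the 3 richest cells held 601, 254 and 190 of them, or 51.2%. In Card14KI, 4 cells held 269 UMIs, as 199, 55, 12 and 3. Most of the WT UMIs lay in cells without a Cd3 UMI: 5 of 10 NK cells held 825 UMIs and 6 of 25 other lymphoid cells held 942. Of the WT NK and other lymphoid cells, 2 and 5 had a UMI of a V gene of the DETC gate (Tcrg-V5, Trgv5 or Trdv4). Whether these were DETC without a Cd3 UMI was not tested. DETC were the other main carriers, with 12 of 64 cells and 127 UMIs in WT and 1 of 19 cells and 12 UMIs in Card14KI. One WT CD4 cell alone held 121 UMIs.

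The T/ILC level of Gzmc was 1341 CPM in WT against 424 in Card14KI (ratio 0.316, 0.277 to 0.359), and 0.117 without the richest cell of each library. The share of positive cells was 8.67% in WT and 2.74% in Card14KI, differing by -5.93 percentage points (-9.64 to -1.16). Thinned to 2000 UMIs, as the mean over all possible draws of UMIs, the shares were 7.60% and 3.08%, and the interval of the difference (-8.41 to 0.64) included 0. Here and below, cells with fewer than 2000 UMIs were left out of thinned shares, which kept 324 WT and 130 Card14KI T/ILC cells. NK and other lymphoid cells, the subsets that held most Gzmc, numbered 35 in WT and 4 in Card14KI, and their part in the difference was not tested. Among cells with a Cd3 UMI, the ratio was 0.909 (0.676 to 1.21). A further 328 WT UMIs lay in 2 cells of the led clusters that failed the gate.

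Gzmb was spread over more subsets, and the interval of its total ratio included 1. It had 77 UMIs in 28 WT cells and 39 UMIs in 16 Card14KI cells, at 50.5 and 61.5 CPM (ratio 1.22, 0.805 to 1.81). The WT cells with the most UMIs were 2 NK cells, with 14 and 13, and a Foxp3 cell with 8. In Card14KI the 3 cells with the most, 8, 7 and 7 UMIs, were all CD8 cells. Among Foxp3 cells 7 of 30 in WT and 3 of 9 in Card14KI were positive, with 18 and 5 UMIs. Gzmb was detected in 6 of 64 DETC in WT and 0 of 19 in Card14KI, where a count of 0 allows up to 15.8%.

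**Figure D3:**
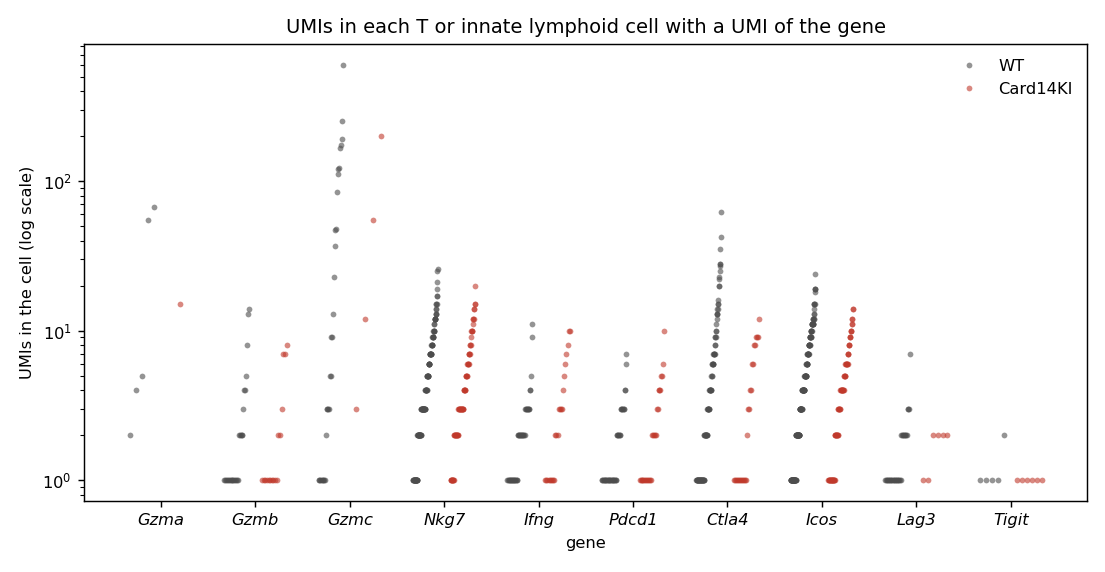
UMIs (log scale) in every T/ILC cell with at least 1 UMI of the gene, WT in grey and Card14KI in red; each point is a cell. Gzmc reached 601 UMIs in 1 WT cell and 199 in 1 Card14KI cell, while no cell held more than 26 UMIs of Nkg7.

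Nkg7, on chromosome 7 (43437073 to 43438249, plus strand), was the most widely detected effector. It was present in 152 of 369 WT cells (41.2%) and 76 of 146 Card14KI cells (52.1%), differing by 10.9 percentage points (1.34 to 20.2). Thinned to 2000 UMIs the shares were 37.3% and 44.2%, and the interval of the difference (-2.98 to 16.8) included 0. Its level was 552 CPM in WT against 613 in Card14KI (ratio 1.11, 0.982 to 1.25). No cell held more than 3.09% of its UMIs in WT or 5.14% in Card14KI.

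By subset, Nkg7 was detected most often in DETC, CD8 and NK cells of both libraries. It was detected in 59 of 64 and 19 of 19 DETC, in 27 of 38 and 32 of 35 CD8 cells, and in all 12 NK cells. It was detected in 12 of 27 WT CD4 cells, 7 of 54 type 2 cells, 4 of 30 Foxp3 cells, 2 of 40 type 17 cells and 0 of 16 other gamma-delta cells. In WT, CD8, DETC and NK cells stood above the rest with intervals that did not reach those of type 2, Foxp3 or type 17 cells. The DETC level depended on 2 Card14KI cells outside the led clusters. Within the led clusters, the 63 WT and 17 Card14KI DETC had 432 and 111 UMIs, a ratio of 1.21 (0.976 to 1.498), whereas all 64 and 19 gave 0.433.

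Ifng lies on chromosome 10 (118441046 to 118445892, plus strand). It had 107 UMIs in 47 WT cells and 77 UMIs in 23 Card14KI cells. The levels were 70.2 and 121 CPM (ratio 1.73, 1.27 to 2.34), but the shares of positive cells were close at 12.7% and 15.8%, differing by 3.02 percentage points (-3.27 to 10.4). More UMIs per positive cell, and not a clear excess of positive cells, accompanied the higher level. The 3 richest Card14KI cells held 10, 10 and 8 UMIs, and the 3 richest WT cells 11, 9 and 5.

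The carriers of Ifng were CD8, CD4 and other T cells. In WT it was detected in 11 of 38 CD8 cells, 8 of 27 CD4 cells, 21 of 65 other T cells and 3 of 10 NK cells. In Card14KI it was detected in 10 of 35 CD8 cells, 6 of 14 CD4 cells and 4 of 31 other T cells. In other T cells the share was 32.3% in WT and 12.9% in Card14KI, differing by -19.4 percentage points (-33.8 to -0.52), and by -20.4 (-35.0 to -1.40) in the led clusters. The shares after thinning to 2000 UMIs were 25.9% and 12.4%, and the interval of the difference (-28.5 to 5.95) included 0. No Foxp3 cell and no type 17 cell of either library held an Ifng UMI: 0 of 40 and 0 of 29 type 17 cells allow up to 7.5% and 10.3%. Of the Ifng-positive cells, 40 of 47 in WT and 21 of 23 in Card14KI also held Nkg7, against 19.4 and 12.0 cells if the genes had been detected independently.

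Ctla4, Icos and Cd28 lie together on chromosome 1, with Ctla4 from 60887000 to 60915832 and Icos from 60977927 to 61000320, both on the plus strand and 62094 bases apart. Ctla4 was lower in the mutant library by level and by share of cells, also after thinning. It was detected in 110 of 369 WT cells (29.8%) and 26 of 146 Card14KI cells (17.8%), differing by -12.0 percentage points (-19.2 to -3.71). Thinned to 2000 UMIs the shares were 23.7% and 11.4%, differing by -12.3 points (-18.9 to -4.39). Its UMIs numbered 750 and 96, or 492 and 151 CPM (ratio 0.307, 0.246 to 0.381). The ratio was 0.293 without the richest cell of each library and 0.310 in the led clusters.

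Ctla4 was lower by level both in cells with a Foxp3 UMI and in the rest. Almost every Foxp3 cell carried it, 28 of 30 in WT and 9 of 9 in Card14KI. The 296 and 52 UMIs there gave 2964 and 1619 CPM (ratio 0.546, 0.399 to 0.736), on only 9 Card14KI cells. Without Foxp3 cells, 82 of 339 WT cells and 17 of 137 Card14KI cells were positive, 24.2% and 12.4%, and the ratio of CPM was 0.229 (0.164 to 0.313). The Foxp3 gate asked for 1 UMI and held 13 and 5 cells when 2 were required. Regulatory T cells without a Foxp3 UMI may therefore be among the rest, and their part was not tested. In CD8 cells Ctla4 was detected in 12 of 38 WT and 2 of 35 Card14KI cells, 31.6% and 5.71%, differing by -25.9 points (-42.3 to -7.91). The difference was -27.6 points (-44.5 to -9.23) in the led clusters. Thinned to 2000 UMIs the CD8 shares were 20.03% and 4.39%, and the interval of the difference (-32.1 to 0.95) included 0. In other T cells 20 of 65 and 7 of 31 were positive, with 194 and 17 UMIs, and 2 WT cells alone held 62 and 42 of the 194. In type 17 cells 10 of 40 and 4 of 29 were positive, an interval of -28.5 to 8.74 points that included 0. Type 2 cells, of which 21 of 54 carried Ctla4 in WT, numbered only 4 in Card14KI and none of those was positive.

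Icos was detected in the most cells in each library, with a slightly lower level in Card14KI. It was present in 190 WT cells (51.5%) and 82 Card14KI cells (56.2%), at 663 and 569 CPM (ratio 0.858, 0.759 to 0.969). Without Foxp3 cells the ratio was 0.978 (0.860 to 1.11). Its presence ran opposite to that of Nkg7: in WT, 2 of 64 DETC and 0 of 10 NK cells held it, against 28 of 30 Foxp3, 20 of 27 CD4, 27 of 40 type 17, 36 of 54 type 2 and 17 of 25 other lymphoid cells. Nkg7 and Icos were detected together in 40 WT cells, against 78.3 if independent, and in 30 Card14KI cells, against 42.7. Ctla4 and Icos were together in 89 WT cells, against 56.6.

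Within subsets, the Icos levels of CD8 and other T cells depended on the cells outside the led clusters. In CD8 cells there were 55 and 86 UMIs, a ratio of 1.82 (1.28 to 2.61). In the led clusters it was 1.31, with an interval (0.920 to 1.87) that included 1. In other T cells there were 149 and 111, a ratio of 2.18 (1.69 to 2.80) that fell to 1.29 (1.002 to 1.66) in the led clusters. In type 17 cells, all of which lay in the led clusters, there were 163 and 90 UMIs, a ratio of 0.633 (0.484 to 0.824). The shares of positive cells were 34.2% and 45.7% in CD8 cells, 60% and 74.2% in other T cells, and 67.5% and 75.9% in type 17 cells. The intervals of all 3 differences included 0.

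Pdcd1, on chromosome 1 (94038305 to 94052553, minus strand), was higher in the mutant library with type 17 cells as its main carriers there. Over all T/ILC cells it had 82 UMIs in 44 WT cells and 67 in 27 Card14KI cells, at 53.8 and 106 CPM (ratio 1.962, 1.40 to 2.74). The shares were 11.9% and 18.5%, differing by 6.57 points (-0.03 to 14.2). In type 17 cells it was detected in 9 of 40 WT and 15 of 29 Card14KI cells, 22.5% and 51.7%, differing by 29.2 points (6.33 to 48.9). The type 17 level was 118 CPM in WT against 351 in Card14KI (ratio 2.97, 1.66 to 5.54). The type 17 shares thinned to 2000 UMIs were 14.5% and 35.1%, and the interval of the difference (-0.35 to 40.9) included 0. The median depths of type 17 cells were 3648 and 4336 UMIs.

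The 2 type 17 groups also differed in receptor type. Of the type 17 cells, 23 of 40 in WT and 24 of 29 in Card14KI had a UMI of Trdc, Trdv4, Tcrg-C1 or Tcrg-V6, a split chosen after the values were seen. Within those cells Pdcd1 was detected in 6 of 23 and 11 of 24, at 155 and 374 CPM (ratio 2.42, 1.27 to 4.94). The type 17 gate was applied before the DETC gate. Of the type 17 cells, 5 of 40 in WT and 13 of 29 in Card14KI had a UMI of a DETC gate V gene (Tcrg-V5, Trgv5 or Trdv4). The V genes were not counted apart, and Trdv4 is also in the receptor split above, so this count does not show that these cells were DETC. The part of these cells in the type 17 differences was not tested. In WT, Pdcd1 was also carried by 14 of 54 type 2 cells and 7 of 27 CD4 cells. It was at 0 of 64 and 0 of 19 DETC, which allows up to 4.69% and 15.8%. Of Pdcd1-positive cells, 39 of 44 in WT and 26 of 27 in Card14KI also held Icos, against 22.7 and 15.2 if independent.

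Lag3 and Tigit were sparse. Lag3, on chromosome 6 (124904361 to 124911705, minus strand), had 57 UMIs in 36 WT cells and 10 UMIs in 6 Card14KI cells, a ratio of 0.421 (0.192 to 0.832). The share was 9.76% and 4.11%, differing by -5.65 points (-9.75 to -0.38), and thinned to 2000 UMIs 6.18% and 2.61%, where the interval (-7.15 to 1.32) included 0. Fibroblasts, thinned alike, stood at 1.0005% and 1.20%. The Card14KI level was 15.8 CPM (7.56 to 29.0) in T/ILC cells and 6.17 CPM (4.22 to 8.71) in fibroblasts, with intervals that overlapped. DETC were its main WT carriers, with 21 of 64 cells positive against 1 of 19 in Card14KI, differing by -27.5 points (-40.5 to -5.63). The positive Card14KI cell held 39257 UMIs in all, where the median of Card14KI DETC was 2558. The DETC shares thinned to 2000 UMIs, in the 55 and 14 cells deep enough, were 22.3% and 0.709%, and the interval (-34.3 to 2.05) included 0. Of the Lag3-positive WT cells 32 of 36 also held Nkg7. Tigit, on chromosome 16 (43648867 to 43664146, minus strand), had 6 UMIs in 5 WT cells and 6 UMIs in 6 Card14KI cells, and its ratio of 2.40 had an interval of 0.642 to 8.98.

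**Figure D4:**
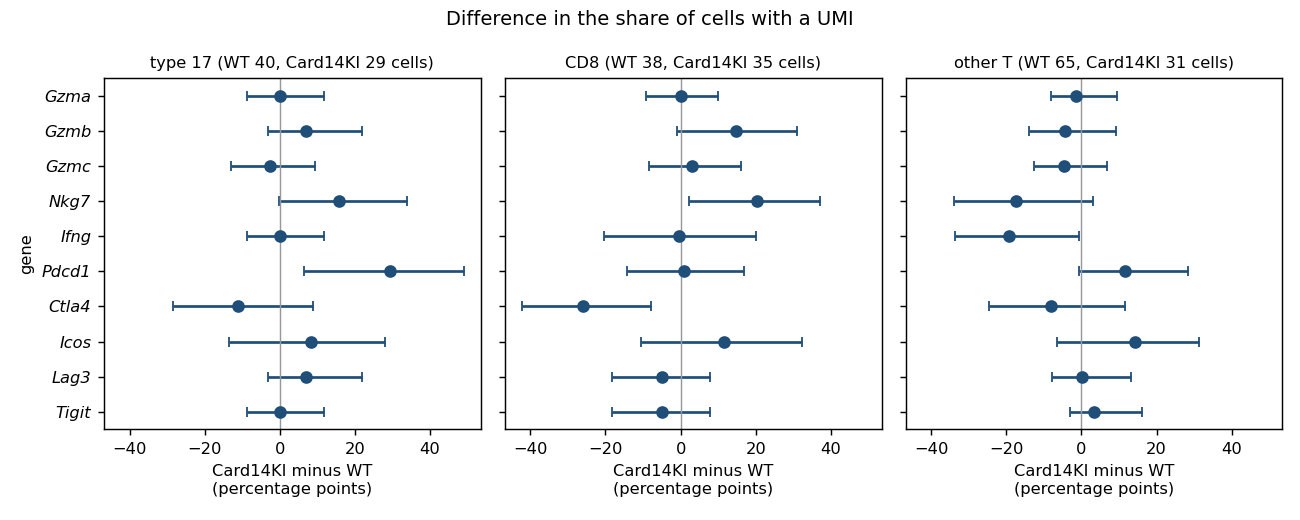
Difference in the share of cells with a UMI, Card14KI minus WT in percentage points, in the 3 subsets with at least 20 cells in both libraries; bars are 95% Newcombe intervals. The intervals lay apart from 0 for Pdcd1 in type 17 cells, for Nkg7 and Ctla4 in CD8 cells and for Ifng in other T cells. In the led clusters alone that of Nkg7 in CD8 cells (-1.38 to 33.5) included 0, and when cells were thinned to 2000 UMIs all 4 did. Thinning also left out the cells with fewer UMIs.

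CD8 cells of the mutant skin held more Gzmb UMIs and fewer Ctla4 UMIs, with and without the 2 WT cells outside the led clusters, while the results for Nkg7 and Ifng shifted with those cells. Gzmb had 2 UMIs in 2 WT cells and 26 UMIs in 7 Card14KI cells, a ratio of 15.2 (3.80 to 132), and of 10.7 (2.67 to 92.8) in the led clusters. The shares of Gzmb-positive cells were 5.26% and 20%, differing by 14.7 points (-0.87 to 31.1). Ctla4 had a led-cluster ratio of 0.265 (0.116 to 0.554), with 14 of 31 WT UMIs and 9 of 10 Card14KI UMIs in single cells. Ifng had 18 and 40 UMIs in 11 and 10 cells, a ratio of 2.59 (1.45 to 4.80), and of 1.82 (1.022 to 3.38) in the led clusters.

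Nkg7 was detected in 71.1% of WT and 91.4% of Card14KI CD8 cells, differing by 20.4 points (2.12 to 37.2). In the led clusters the WT share was 75% and the interval of the difference (-1.38 to 33.5) included 0. Thinned to 2000 UMIs, which kept 34 WT and 32 Card14KI CD8 cells, the shares were 76.4% and 78.2%. The Nkg7 level of the led clusters was lower in Card14KI, with 169 and 162 UMIs in 36 and 35 cells and a ratio of 0.787 (0.630 to 0.982). Gzmc had 5 UMIs in 1 WT cell and 58 in 2 Card14KI cells, 55 of them in a single cell. Of the 7 members with 10 or more UMIs in CD8 cells, 3 were 2-fold higher (Gzmb, Gzmc and Ifng), beside 12.3% of 3517 genes. One was 2-fold lower (Ctla4), beside 15.0%. In the led clusters 2 were higher (Gzmb and Gzmc), beside 8.54% of 3055 genes, and Ctla4 was lower, beside 11.2%.

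In type 17 cells 4 members had 10 or more UMIs. Of these 2 were 2-fold higher (Nkg7 and Pdcd1), beside 11.6% of 3389 genes, and 1 was 2-fold lower (Ctla4), beside 12.4%. Nkg7 there had 6 UMIs in 2 WT cells and 17 in 6 Card14KI cells, all 6 with a gamma-delta receptor UMI. In other T cells 7 members were measured. Pdcd1 and Icos were 2-fold higher, beside 12.4% of 4724 genes, and Gzmc and Ctla4 were 2-fold lower, beside 20.2%. In the led clusters Pdcd1 was 2-fold higher, beside 9.69% of 3570 genes, while Gzmc, Ctla4 and Ifng were lower, beside 13.4%. Ifng had 50 and 11 UMIs there, a ratio of 0.382 (0.179 to 0.743). Pdcd1 had 5 UMIs in 3 WT cells and 12 in 5 Card14KI cells.

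Most member RNA lay in the gate, except for Lag3. T/ILC cells held 87.0% of the UMIs of the 10 genes in kept WT cells and 85.7% in Card14KI. In fibroblasts, which should lack these genes, 0 to 0.678% of cells in WT and 0 to 0.306% in Card14KI held a UMI of any member other than Lag3. Fibroblast medians were 7232 and 5153 UMIs, deeper than those of T/ILC cells. Keratinocytes held 26 Nkg7 UMIs in WT and 59 in Card14KI, in 7 and 27 cells.

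Ctla4 was also detected in cells of the B or plasma gate, in 23 of 79 in WT and 14 of 42 in Card14KI, with 48 and 31 UMIs. These cells carried Cd79a (23 of 23 and 14 of 14) and Jchain (21 and 14), the joining chain of secreted antibody. Only 2 of the 23 and 0 of the 14 had a Cd3 UMI, and none had a Foxp3 UMI. Their median depth was 18290 and 10049 UMIs, against 2954 and 3408 in the Ctla4-negative cells of the gate. The part of depth in this difference was not tested.

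Lag3 differed from the other 9 genes in where its UMIs lay. T/ILC cells held 31.7% of its UMIs in WT and 9.26% in Card14KI, and fibroblasts held 67 and 32 UMIs, in 3.28% (2.50 to 4.22) and 3.06% (2.08 to 4.35) of cells. B or plasma cells held it in 4 of 79 and 8 of 42 cells, and endothelial cells in 2 of 94 and 9 of 75. The gene Ptms ends 1975 bases upstream of Lag3 on the same strand and was abundant in fibroblasts, at 407 and 378 CPM. Lag3-positive WT fibroblasts held a mean of 4.98 Ptms UMIs against 3.18 in the others, at median depths of 7979 and 7214 UMIs. In WT T/ILC cells the means were 3.22 in Lag3-positive and 0.937 in Lag3-negative cells, at median depths of 3788 and 3168 UMIs. Whether any Lag3 UMIs of either class belong to Ptms was not tested.

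**Figure D5:**
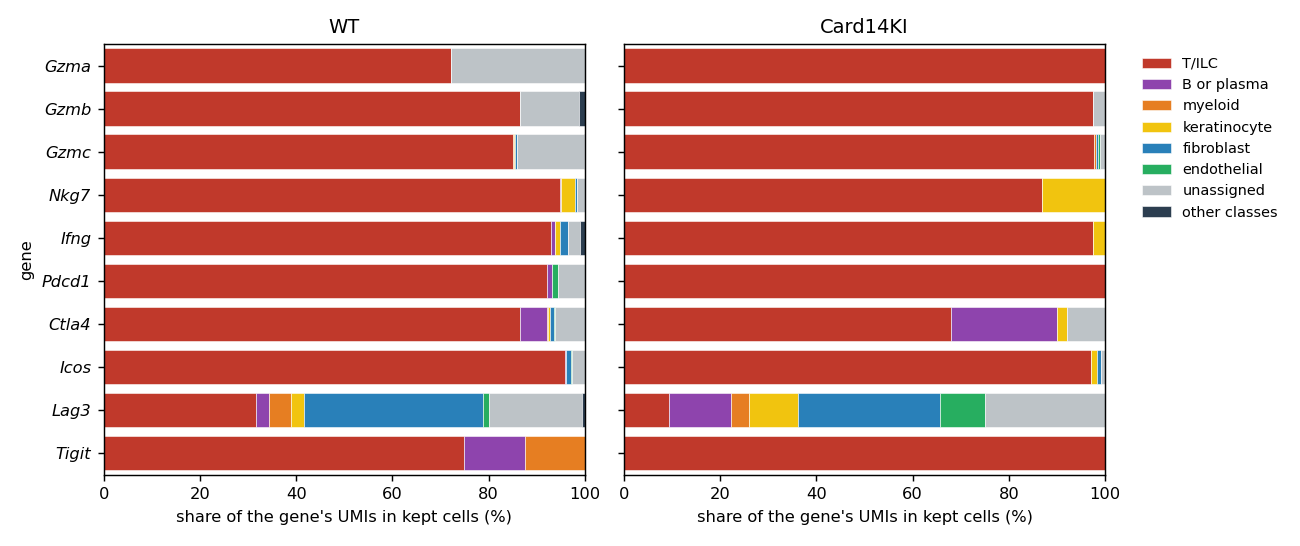
Share of each gene's UMIs that fell in each cell class, in percent of its UMIs in kept cells, WT on the left and Card14KI on the right. Lag3 stands apart with 31.7% and 9.26% in T/ILC cells, and Ctla4 has a B or plasma share of 5.54% and 22.0%.

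Other cytotoxic genes of the list were, in T/ILC cells, mostly within 2-fold. Of 23 with 10 or more UMIs, 3 were 2-fold lower and 1 higher, beside 12.5% and 5.57% of all genes, with a median log2 ratio of -0.11 beside -0.06 for all genes. Prf1, the pore-forming perforin, had 150 and 30 UMIs, a ratio of 0.480 (0.313 to 0.714). Xcl1, a chemokine made by DETC and NK cells, had 747 and 115, a ratio of 0.370 (0.301 to 0.450). Gzmk had 32 and 5 UMIs, 0.375 (0.114 to 0.970). Ccl5, a chemokine of effector T cells, had 1617 and 1105 UMIs in 48 and 25 cells, a ratio of 1.64 (1.52 to 1.77), and Srgn, the granule proteoglycan, had 2148 and 1194, a ratio of 1.33 (1.24 to 1.43).

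In CD8 cells, 3 of 16 measured genes of that list were 2-fold higher and 3 lower, beside 12.3% and 15.0% of all genes. The higher ones were Ctsw, a granule protease (41 and 110 UMIs, 3.13-fold), and the NK receptor genes Klrd1 (19 and 49, 3.01-fold) and Klrc1 (6 and 19, 3.69-fold). Eomes, a transcription factor of effector and memory CD8 cells, had 29 and 9 UMIs, a ratio of 0.362 (0.151 to 0.785). In the led clusters the counts were again 3 higher and 3 lower, beside 8.54% and 11.2%, with folds of 2.38 for Ctsw, 2.23 for Klrd1 and 2.60 for Klrc1, whose interval (0.998 to 7.95) included 1, and a ratio of 0.255 for Eomes. These CD8 genes were named after their values were seen.

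Of 19 other checkpoint and costimulatory receptor genes, 2 were 2-fold lower in T/ILC cells and 1 higher, beside 12.5% and 5.57% of all genes. Klrg1, an inhibitory receptor of effector and type 2 cells, had 60 UMIs in 38 WT cells and 3 UMIs in 3 Card14KI cells, a ratio of 0.120 (0.024 to 0.368). Of the 38, 12 were type 2 cells. Cd28, the activating receptor that shares ligands with CTLA-4, had 623 and 192 UMIs, a ratio of 0.740 (0.626 to 0.871). Tnfrsf4 and Tnfrsf18, which encode the costimulatory receptors OX40 and GITR, had ratios of 1.41 (1.18 to 1.69) and 0.952 (0.772 to 1.17). In type 17 cells Cd28 had 29 UMIs in 9 of 40 WT cells and none in 29 Card14KI cells.

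The ligands were mostly held by other cells. Cd86, a ligand of CD28 and CTLA-4, was detected in 43.7% of WT and 47.1% of Card14KI myeloid cells, at 125 and 166 CPM. Cd80, the second such ligand, had 31 and 26 UMIs there, a ratio of 2.08 (1.19 to 3.63). Icosl, the ICOS ligand, was highest in fibroblasts, at 16.2 and 20.6 CPM, and Nectin2, a TIGIT ligand, in endothelial cells, at 158 and 181 CPM. Cd274, which encodes PD-L1, stood at 50.5 and 64.6 CPM in T/ILC cells themselves. Of 13 ligand and receptor genes measured in T/ILC cells, 3 were 2-fold lower, beside 12.5% of all genes. All 3 were class II genes with 75, 45 and 74 of their WT UMIs in single cells.

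Of 9 interferon-gamma target genes measured in T/ILC cells, 1 was 2-fold lower, beside 12.5% of all genes: Cxcl10, with 104 of its 152 WT UMIs in 1 cell. Irf1 had a ratio of 0.953 (0.672 to 1.33) and Cd74 1.24 (1.008 to 1.53). Ifngr1, a chain of the interferon-gamma receptor, had 734 and 260 UMIs, a ratio of 0.851 (0.735 to 0.981). In fibroblasts Cxcl10 had 1862 and 1684 UMIs, a ratio of 2.45 (2.29 to 2.62).

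Likeness was measured as Pearson's r of log2(CPM + 10) over the 11 points of subset and library with at least 20 cells, among 4854 genes. The points share 2 libraries and their depths, so these are descriptions. Nkg7 was closest to Sumo3 (r = 0.87) and Klrd1 (0.87), and Ifng to Tbx21 (0.92), which encodes the type 1 transcription factor T-bet. Lag3 was closest to Xcl1 (0.90), Cd96 (0.87) and Klrd1 (0.86), and Gzmc to Cd160 (0.87). Icos followed Cotl1 (0.94) and Gmfg (0.94), Pdcd1 followed Cyba (0.99) and Bcl2a1b (0.92), and Ctla4 followed Vps54 (0.91) and Ass1 (0.87). The genes ranked first for Gzmb and Gzma were Gpr55 (0.91) and Defb6 (0.97); only 1 of the 11 points held any Gzma UMI.

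Per cell, the members were few. No member was detected in 52 WT and 11 Card14KI T/ILC cells, 1 member in 113 and 56, 2 in 109 and 39, and 3 in 71 and 30. The cell with the most held 6 in WT, in 2 cells, and 7 in Card14KI, in 1 cell. Gzmc and Lag3 were together in 13 WT cells against 3.12 if independent, and Gzmc and Nkg7 in 29 against 13.2. Gzmb and Ctla4 were together in 17 WT cells against 8.35.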

How the data were processed

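Single-cell 3′ libraries of whole back skin from 1 WT and 1 Card14KI mouse were used as deposited: whole-number UMI counts per gene and barcode, made by the authors with Cell Ranger against mm10, per the submitters' processing notes (version 6.0.2) and the file headers (version 5.0.0). No count was changed. The libraries held 5016 and 3348 barcodes with 54816411 and 41460580 UMIs.

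Kept cells had at least 500 genes, under 20% mitochondrial UMIs and were not among the highest Scrublet doublet scores (0.8% per 1000 barcodes, 174 and 78 cells; Scrublet's own limit marked 2 and 4). The gate required 3 of 12 T/ILC markers and under 2% each of keratinocyte and fibroblast marker UMIs. The members and lists were chosen with earlier results of these data known. All members are named. Other list genes are named where they had 20 or more UMIs in T/ILC cells and a 2-fold ratio, or were among the 3 highest of their list. Shares have Clopper-Pearson intervals, their differences Newcombe intervals, CPM exact Poisson intervals and ratios exact conditional binomial intervals. Thinned shares are means over all possible draws, and cells with fewer UMIs than the thinned depth were left out. A count of 0 allows 3 counts. Analyses used Python 3.11.15, scanpy 1.11.5 and scipy 1.17.1, and the ratio step was tested on simulated counts. Gene positions come from GENCODE vM21 and promoters from RefSeq GRCm38.p6.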

Additional observations from a re-analysis of the deposited data

Results flagged for a closer look

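Some genes stood higher in one subset and lower in another under the same comparison of the libraries, each with a counting interval apart from 1 when all gated cells were used. With 1 library per genotype the difference between the subsets was not tested. The Icos ratio of Card14KI to WT was 1.82 in CD8 cells and 2.18 in other T cells, but 0.633 in type 17 cells. In the clusters led by T/ILC markers the first 2 ratios were 1.31, with an interval (0.920 to 1.87) that included 1, and 1.29 (1.002 to 1.66). The Gzmc ratio was 13.5 in CD8 cells (9.52 in the led clusters), where 1 Card14KI cell held 55 of 58 UMIs, while in other T cells 19 WT UMIs in 3 cells stood against 0 in Card14KI.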

How the results depend on the processing

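No paired analysis was possible because each genotype is 1 library, and for the same reason no replicate could be left out. Of 636 recomputed values, 607 stayed within the counting interval or 1.5 times the count. The number of members 2-fold lower in T/ILC cells was 7 with a keratinocyte and fibroblast limit of 5% and 2 with the same subset shares in both libraries. The latter weighting set no minimum of cells per subset. The subset with the highest WT share stayed the same for 6 of 10 members when 2 Foxp3 UMIs were required. That setting left 13 WT Foxp3 cells, below the minimum of 20 cells for a subset, so Foxp3 cells dropped out of this ranking. Any member led by Foxp3 cells had to change, so this count cannot show whether the ranking of such members was stable. Of the members' UMIs 13.3% lay outside the gate, 14.4% with doublets kept and 7.28% with T/ILC cells taken by cluster, an alternative chosen after seeing the data. The values for CD8 and other T cells in the clusters led by T/ILC markers were also added after seeing the data. Tigit's log2 ratio turned to -0.25 under the 5% limit, Gzma's to 2.18 with 5 markers, Gzmc's to 0.22 with equal subset shares, and Lag3's share difference to 0.17 points in 1 random draw of 1000 UMIs per cell, while the mean over all draws, added after seeing the data, was -1.94 points. That list holds only ratios of at least 2-fold and share differences with intervals apart from 0. Smaller ratios changed sign as well. Over the settings, the log2 ratio of Ifng fell from 0.79 to as low as -0.71, and that of Pdcd1 from 0.97 to -0.54. The log2 ratio of Gzmb fell from 0.28 to -1.23 and that of Nkg7 from 0.15 to -1.22. The cause of these changes of sign was not tested. Members with few UMIs (Tigit, Lag3, Gzma) are limited by depth.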
